A study of Ovis aries with 18 samples.

Results

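Aminoacyl-tRNA synthetases, translation initiation and elongation factors and RNA methyltransferases (most of them of tRNA) were examined for allelic imbalance (AI) in gene expression. AI is an unequal number of reads from the 2 alleles of a heterozygous animal. The genes were taken by symbol: every autosomal gene of the SNP table whose name was that of a cytosolic or mitochondrial synthetase, an initiation factor (EIF, without the EIF4E-binding proteins), an elongation factor (EEF), a poly(A)-binding protein (PABPC) or a methyltransferase of the TRMT or NSUN families. The symbols ETF1, GSPT, ABCE1 and AIMP were also part of the rule and matched no gene of the table. This gave 280 SNPs in 68 genes, of 24355 SNPs in 5810 genes in all. No expression value entered this rule, but the genes were chosen with earlier results of these data known. Perirenal adipose tissue was taken from 18 untreated, wild type, pure bred merino fetuses, 16 female and 2 male, at 132 days of gestation (term 150 days), and there was no second group. Per the methods, all were singletons by a common sire out of unrelated ewes kept on maintenance rations. Each animal was therefore compared with itself, 1 allele against the other, and bulk RNA was used, so that a difference in 1 cell type and a smaller difference in all cells cannot be told apart.

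Aminoacyl-tRNA synthetases join each amino acid to its tRNA, and, with few exceptions, separate nuclear-encoded enzymes serve the cytosol and the mitochondria. Initiation factors bring the small ribosomal subunit and the initiator tRNA to the start codon, elongation factors deliver each charged tRNA and move the ribosome along the mRNA, and methyltransferases modify the tRNA bases. In the perirenal fat of fetal sheep, a depot rich in brown adipocytes before birth, mitochondrial translation makes core subunits of the respiratory chain.

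The reads at all SNPs numbered 2970824 to 5334585 per library, of which 48348 to 87570 lay at the 280 SNPs. The animals were heterozygous at 106 to 168 of these SNPs, with a median depth of 61 to 131.5 reads at each animal's heterozygous SNPs. Of the fat markers looked at to check the tissue, the brown fat uncoupling protein UCP1 was covered by a median of 2803 RPM (reads over the base of a SNP, scaled to 1000000 reads at all SNPs of the library) and ADIPOQ by 3109 RPM, PLIN1 by 555, CIDEA by 111 and PPARGC1A by 26.4, and no SNP of FABP4 was in the table. One female, RS929, was heterozygous at 29.1% of the SNPs on chromosome X, against 25.4% and 32.4% in the males and 54.1% to 69.7% in the other females. Without RS929 the counts of SNPs with AI given below were 114 and 72 by the 2 tests, in place of 114 and 80.

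The reference share, the share of reads with the allele of the Oar v3.1 reference genome summed over heterozygous animals, had a median of 0.521 over the 280 SNPs and of 0.519 over all SNPs tested. Of the 280, 254 (90.7%) lay within 0.1 of equal shares, against 87.9% of all SNPs tested. By the likelihood ratio test (LRT) on summed reads, with P-values adjusted over all SNPs, 114 of the 280 showed AI at an adjusted P-value under 0.05, 40.7% against a background of 38.0% of all SNPs tested. By a quasi-binomial test that takes the animals as replicates, 80 did, 28.6% against 24.5%, and all 80 were among the 114. Of the 80, the reference allele was higher at 63 and the alternate at 17. Of the 5929 SNPs called by this test in the whole table, these were 4661 and 1268 (19.3% and 5.24% of all SNPs tested). Among the 114, the reference allele was higher at 89 and the alternate at 25. Of the 9201 SNPs called by the LRT in the whole table, these were 7017 and 2184 (28.9% and 9.01% of all SNPs tested). Tested against the median share of all SNPs in place of 0.5, 102 were called, 36.4% against a background of 34.6%, with 56 above that median and 46 below it. The share of calls on the upper side was then 54.9%, against 78.1% at the null of 0.5, and that of all called SNPs likewise 54.9%, against 76.3%. By gene, 46 of the 68 held a called SNP by the LRT (background 58.5%) and 35 by the quasi-binomial test (background 41.4%).

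**Figure D1:**
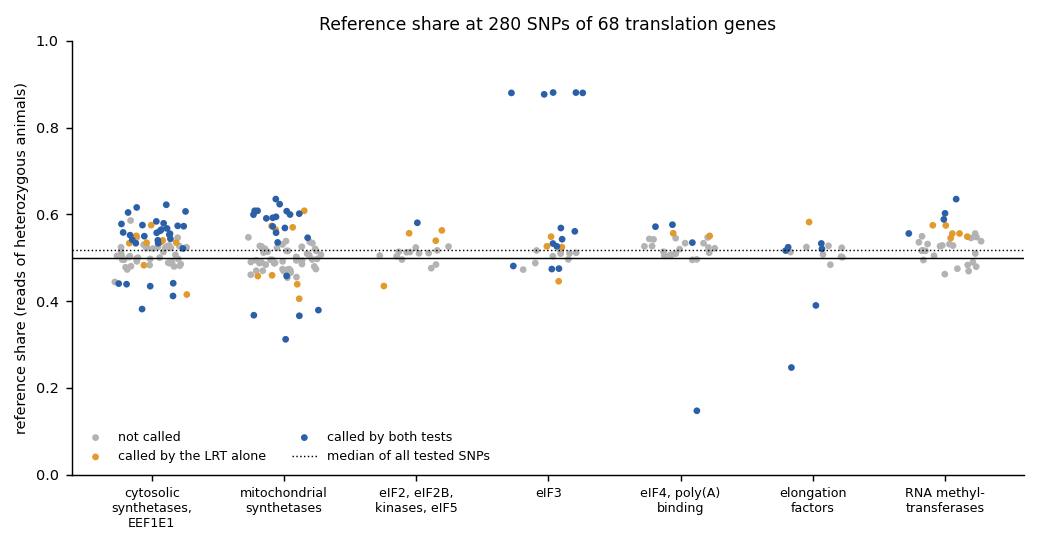
Reference share at each of the 280 SNPs (points), by role of the gene, with the colour of the point giving the tests that called it. EEF1E1, a scaffold protein, is with the cytosolic synthetases, and EEF2K, a kinase, with the elongation factors. The eIF2 group includes EIF2A and EIF5B and holds no subunit of eIF2. The solid line is 0.5 and the dotted line the median of all tested SNPs, 0.519. Most points lie within 0.1 of the lines, and the cluster at 0.876 to 0.881 is EIF3A and the lowest point, 0.147, EIF4G2.

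The roles differed in how many SNPs were called by both tests (background 24.5%). The count was 1 of 18 among EIF2A, the exchange factor and kinases of eIF2, EIF5 and EIF5B, and 13 of 26 in eIF3. It was 31 of 83 in the cytosolic synthetases together with EEF1E1, a scaffold protein of their complex, and 21 of 80 in the mitochondrial ones. In eIF4 and the poly(A)-binding proteins it was 4 of 25. It was 6 of 15 in the elongation factors together with EEF2K, a kinase of EEF2, and 4 of 33 in the methyltransferases. SNPs of 1 gene share animals and haplotypes, and 5 of the 13 in eIF3 lay within 9 bp of each other in EIF3A, so these counts are descriptions and were not tested against each other. Depth also differed: the median SNP was covered by 76.9 RPM in eIF3 and by 13.2 in the mitochondrial synthetases. RPM counts the reads over 1 base and so does not grow with the length of a gene, but it depends on where the SNPs lie: within EEF1G it ran from 6.99 to 1096, within EIF4G2 from 35.0 to 196 and within TRMT2A from 6.68 to 17.2. The median over a gene's SNPs was highest for the elongation factors EEF1G (1006) and EEF2 (717), followed by EIF4B (306), EIF3E (273) and EIF3M (270), and lowest for TRMT5 (6.44), EIF2AK3 (6.64), TRMT2A (6.84), EIF2AK2 (7.40) and EIF4ENIF1 (8.39). With every heterozygous animal down-sampled to 50 reads, 14 of the 68 genes (20.6%) were among the 1500 genes ranked first by the LRT, against 25.9% of all genes.

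Among the cytosolic synthetases, threonyl-tRNA synthetase (TARS) and asparaginyl-tRNA synthetase (NARS) showed AI at most of their SNPs and in opposite directions. The TARS SNPs on chromosome 16 were heterozygous in the same 10 animals and lay up to 9593 bp apart, with reference shares of 0.412 (position 40240858), 0.441 (40242424), 0.440 (40244478) and 0.382 (40250451). At the last, a missense SNP next to a splice site, the animals ran from 0.330 through a median of 0.371 to 0.473, so all 10 had more reads of the alternate allele (adjusted P-value 1.1e-06, quasi-binomial test; exact sign-flip permutation test over the animals, two-sided, P = 0.00195, the least that 10 animals can give). All 10 animals were also below 0.5 at each of the other TARS SNPs.

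The NARS SNPs, on chromosome 23, had shares of 0.533 to 0.604 at 6 synonymous positions. All 6 were called by the LRT and 5 by both tests. At 57066241 the 6 heterozygous animals ran from 0.549 to 0.670 (median 0.591) and none was below 0.5 (adjusted P-value 0.00067, quasi-binomial test). In the 12 homozygous animals 2.46% of reads at that SNP carried the other allele. The reference allele of NARS was thus higher at SNPs that differed in which animals were heterozygous.

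Alanyl-tRNA synthetase (AARS), on chromosome 14, had the most SNPs among the cytosolic enzymes, 18, of which 9 were called by both tests. They did not point one way. At a missense and a synonymous SNP 2 bp apart (1188184 and 1188186), the shares were 0.434 and 0.439 and all 6 heterozygous animals were below 0.5 at both. At 1195314, annotated as upstream of the gene, the share was 0.607 and all 10 animals lay between 0.545 and 0.681 (adjusted P-value 1.44e-05, quasi-binomial test). The nearest SNPs, heterozygous in the same 10 animals, were at 0.553 (1195268) and 0.533 (1195375), so the size differed between positions less than 100 bp apart, which reads of 100 bp can span.

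In EPRS, the joint glutamyl- and prolyl-tRNA synthetase on chromosome 12, 3 adjacent SNPs at 21609468, 21609469 and 21609470 had shares of 0.578, 0.579 and 0.573, and the SNP at 21636693 0.565. At 21648106 and 21648166 they were 0.491 and 0.487, in the same 6 animals as 21636693, and neither was called. QARS, for glutamine, had shares of 0.521 to 0.557 at 3 deeply covered SNPs, all called by both tests (a gene chosen after its values were seen). At 50864883 all 13 heterozygous animals were between 0.522 and 0.561. YARS, for tyrosine, was at 0.616 in 6 animals (0.530 to 0.651, chromosome 2, 233964463), and EEF1E1, the scaffold protein, at 0.575 in 11 animals (0.5 to 0.696, chromosome 20, 46359172).

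For CARS, the cysteinyl enzyme, the SNP farthest from equal shares (chromosome 21, 47815249, synonymous in a splice region) was at 0.622, and its 5 heterozygous animals had 0.444, 0.571, 0.575, 0.672 and 0.738. One animal lay on the other side, the adjusted P-value was 0.0485 by the quasi-binomial test and the exact sign-flip permutation test gave P = 0.125, where 5 animals allow no less than 0.0625. In the same 5 animals the CARS SNPs at 47823830 and 47823836 were at 0.444 and 0.415. GARS and KARS, which serve both the cytosol and the mitochondria, were counted as cytosolic. Of the other synthetases so counted, GARS (4 SNPs), VARS (3), WARS (2) and HARS (1) had no called SNP, and KARS, covered by 233 RPM, had shares of 0.497 and 0.483, the latter called by the LRT alone. These genes were chosen for mention after their values were seen.

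The mitochondrial synthetases held the genes with the longest runs of linked SNPs. AARS2, the mitochondrial alanyl enzyme on chromosome 20, had 20 SNPs, 10 of them missense, at a median of 11.4 RPM. At 13 of them the same 9 animals were heterozygous and the other 9 homozygous for the alternate allele, and the share was below 0.5 at all 13, from 0.366 to 0.489 over 6320 bp. Only 2 of the 13 were called by both tests. At one, the missense SNP at 17879552, the 9 animals ran from 0.246 through 0.381 to 0.524 and 8 were below 0.5 (adjusted P-value 0.000959, quasi-binomial test; exact sign-flip permutation test, P = 0.00781).

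A further AARS2 SNP, 17884871, stood apart from its neighbours. It was called heterozygous in all 18 animals with a share of 0.312, and every animal was below 0.5, from 0.192 through 0.325 to 0.467 (exact sign-flip permutation test, two-sided, P = 7.63e-06, the least that 18 animals can give). In the 8 animals that were also heterozygous at 17885008, 137 bp away, the shares were 0.322 and 0.516. No animal was homozygous at 17884871, so the genotype calls could not be set beside homozygous controls.

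LARS2, the mitochondrial leucyl enzyme on chromosome 19, had 13 SNPs, of which 7 were called by both tests, all with the reference allele higher. At 53661344, 53685747 and 53701977, which the same 8 animals carried over 40633 bp, the shares were 0.591, 0.599 and 0.599. They were 0.601 to 0.635 at 4 SNPs from 53689619 to 53689860, where 53689799 was highest and its 7 animals lay between 0.565 and 0.673 (adjusted P-value 0.000438, quasi-binomial test). At 53649813, 53660352, 53660364, 53682366 and 53682393, by contrast, the shares were 0.473 to 0.495 and none was called. The sets of animals heterozygous at these SNPs differed from those at the called ones but overlapped them. In 3 animals heterozygous at all of them, 53689799 was at 0.636, against 0.493 at 53682366 and 0.511 at 53682393. In 2 animals it was at 0.639, against 0.384 at 53660352.

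**Figure D2:**
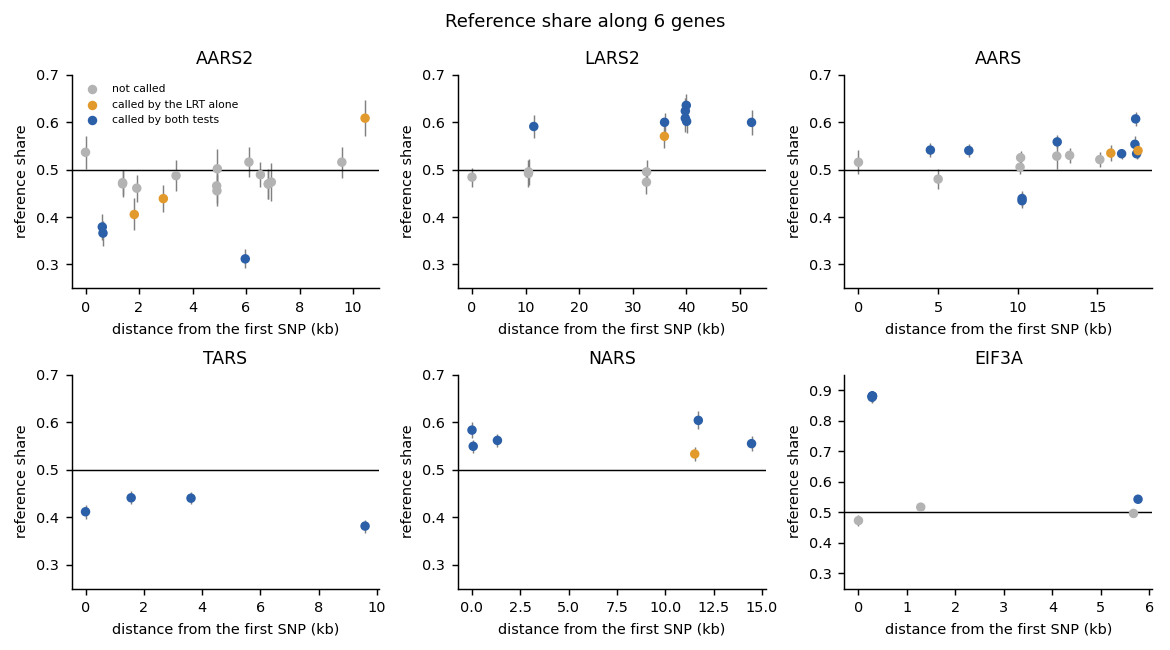
Reference share (points) with its standard error, from the quasi-binomial fit (bars), against the distance in kb from the first SNP of the gene, for the synthetases AARS2, LARS2, AARS, TARS and NARS and for EIF3A, whose share axis is longer. TARS lies below 0.5 (0.382 to 0.441) and NARS above it (0.533 to 0.604) throughout, whereas LARS2 and EIF3A have SNPs near 0.5 beside SNPs far from it.

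EARS2 (glutamyl, chromosome 24) was heterozygous in most animals. At 21220259, 21220292 and 21226759, heterozygous in the same 16 animals, the shares were 0.594, 0.592 and 0.572. At 21234307, heterozygous in 15 of them, it was 0.367 and the animals ran from 0.211 to 0.619. The SNP 117 bp from it, 21234424, was at 0.454 in the same 15 animals and was not called. WARS2 (tryptophanyl, chromosome 1) had 7 SNPs within 637 bp that shared their 13 heterozygous animals. The 3′ UTR SNPs at 95721198 and 95721199 were at 0.608 and 0.607, with animals from 0.355 to 0.815 at the first, against 0.507 at the nearby 95721186, and the last 3 of the run were at 0.496, 0.490 and 0.470. TARS2 (threonyl, chromosome 1) had 2 of 9 SNPs called by both tests, in opposite directions: the missense SNPs 99438255 at 0.458 and 99440312 at 0.535. HARS2 and FARS2 had no called SNP, and CARS2 (0.558) and IARS2 (0.546 at one of its SNPs) had 1 each by both tests. These last 4 were chosen after their values were seen.

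Of the initiation factors, EIF3A, the large scaffold subunit of eIF3, had the highest reference shares of the 68 genes, at 1 place. On chromosome 22, 5 SNPs within 9 bp (38203662 to 38203671, 2 of them missense) had shares of 0.876 to 0.881. The first 2, 38203662 and 38203664, were called heterozygous in only 4 animals, though the SNP filter asked for reads of both alleles in 5. The other 3 were called heterozygous in 7. At 38203668 the 7 heterozygous animals had 0.743 (RS918), 0.844 (RS917), 0.845 (RS903), 0.882 (RS947), 0.920 (RS926), 0.926 (RS943) and 0.934 (RS933), and the variance between them was 8.54 times that of counting alone (the dispersion). All were far above 0.5 (adjusted P-value 1.25e-09, quasi-binomial test; exact sign-flip permutation test, P = 0.0156, the least that 7 animals can give). In the 11 homozygous animals 2.69% of reads there carried the other allele, where the median over the 280 SNPs was 0.0395%.

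The rest of EIF3A did not show this. In the 3 of those 7 animals that were also heterozygous 286 bp away at 38203382 (RS918, RS926 and RS943), the share there was 0.467, against 0.881 at 38203668. In RS926, RS933 and RS943, SNPs 998, 5386 and 5479 bp away were at 0.516, 0.499 and 0.571, against 0.926. Only 1 of the 4 other SNPs of EIF3A was called by both tests (38209147, 0.542). The 5 SNPs can lie in 1 read and are not independent.

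The SNPs of the other eIF3 subunits had shares of 0.446 to 0.568. The ends of that range were EIF3L, whose 3 SNPs were all called by the LRT, from 0.446 to 0.561, and 1 by both tests, and EIF3G. EIF3D was called by the LRT at all 3 SNPs and by both tests at 2, from 0.474 to 0.533. Both EIF3L and EIF3D were chosen after their values were seen. EIF3G was at 0.568 (chromosome 5, 12354403, all 9 animals between 0.522 and 0.622) and 0.526, and EIF3M at 0.475 (chromosome 15, 61513189, 7 of 9 animals below 0.5). Both subunits passed both tests at these SNPs, and EIF3G was chosen after its values were seen. EIF3E (0.509, 10611 reads) and all 3 SNPs of EIF3B (0.503 to 0.515) were not called. In EIF3H the SNP at 60424825 on chromosome 9 was at 0.526, and its 5 animals had 0.481, 0.506, 0.510, 0.555 and 0.585, a dispersion of 7.10. The LRT called it (adjusted P-value 0.00104) and the quasi-binomial test did not (0.157). At the EIF3H SNP 60523225, 13 animals gave 0.481 and both tests called the alternate allele higher.

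EIF4G2, a relative of eIF4G that does not bind the cap-binding protein, had the lowest share of the 280 SNPs. At 41437987 on chromosome 15, a synonymous SNP in a splice region, it was 0.147, and the 17 animals called heterozygous ran from 0.0949 through 0.144 to 0.205 (adjusted P-value 3.73e-20, quasi-binomial test; exact sign-flip permutation test, P = 1.53e-05, the least that 17 animals can give). The remaining animal was called homozygous for the alternate allele and had 5.56% of reads with the reference allele. At the other SNP of EIF4G2, 2648 bp away, the 8 animals heterozygous at both had a share of 0.535, against 0.152 at 41437987. Coverage differed too, with a median of 35.0 RPM at 41437987 and 196 at the other.

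EIF4B, a cofactor of the helicase that unwinds mRNA leaders, was at 0.576 at 133263587 on chromosome 3, with all 9 animals between 0.551 and 0.612 (adjusted P-value 1e-08, quasi-binomial test). At its missense SNP 133267989 the share was 0.506. In the 5 animals heterozygous at both, the shares were 0.585 and 0.490. EIF4ENIF1, which carries eIF4E into the nucleus and was the only gene with at least 5 SNPs and none called by either test, had 6 SNPs at 0.522 to 0.547. All 6 were above 0.5, at 8.39 RPM. EIF5B, the GTPase of subunit joining, was called by both tests at 1 of 3 SNPs (0.580, 9 animals, chromosome 3, 101898639), whereas the eIF2 kinases EIF2AK2 (0.526) and EIF2AK3 (0.435 to 0.510) were not called by the quasi-binomial test.

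Among the elongation factors, EEF1G and EEF2 had reads enough to measure small differences. EEF1G, a subunit of the exchange factor that reloads eEF1A with GTP, was at 0.524 over 62258 reads in 14 animals (0.514 to 0.544; chromosome 21, 40304113) and at 0.533 in all 18 animals (0.516 to 0.552; 40307316). No animal fell below 0.5 at either. Both SNPs were called by both tests, and both lay close to the 0.519 median of all SNPs. In an intronic part of EEF1G covered by only 6.99 RPM (40302996), all 18 animals were also called heterozygous, and the share was 0.390 with animals from 0.172 to 0.65.

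EEF2, which moves the ribosome along the mRNA, was at 0.501, 0.502, 0.516 and 0.520 over 15640 to 36455 reads. The last 2 were called by both tests, and 17599394 (0.501, 10 animals, 0.483 to 0.512) was below the median of all SNPs. EEF1A1, the factor that delivers charged tRNA, had 1 SNP in the table (chromosome 6, 77503992), at 0.247 in 17 animals (0.131 to 0.379) and with no animal above 0.5. The remaining animal, called homozygous for the alternate allele, had 14.9% of reads with the reference allele. This SNP was covered by 17.9 RPM. EEF1A1 is known for many processed pseudogenes, which can share reads with it, so the value is uncertain. Whether this position lies in the gene itself or in such a copy was not tested.

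**Figure D3:**
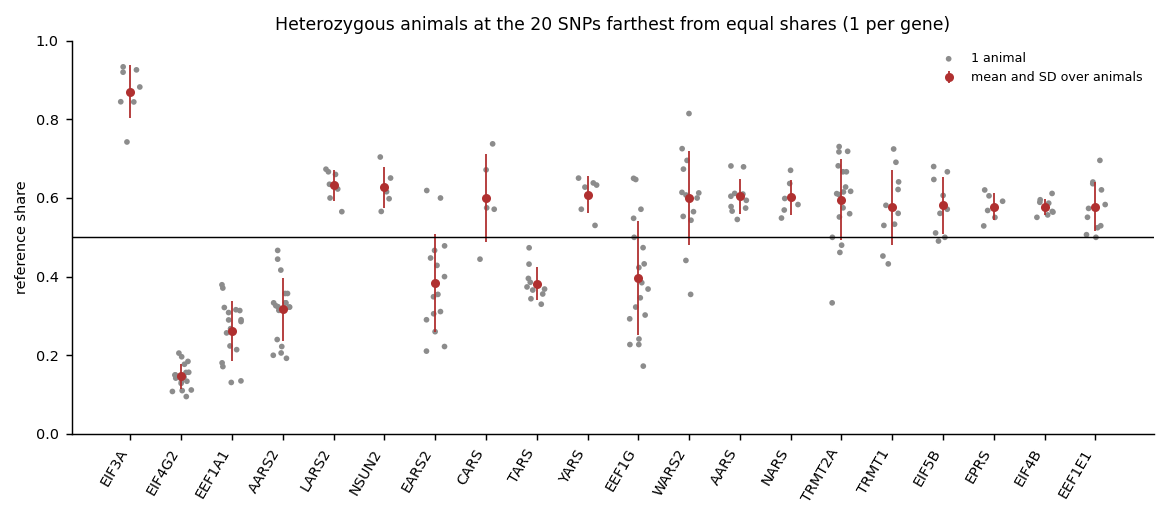
Reference share in each heterozygous animal (grey) with the mean and SD over animals (red) at the 20 SNPs, 1 per gene, that lay farthest from 0.5 (black line) among those called by both tests. At EIF3A, EIF4G2, EEF1A1 and AARS2 every animal lies on the same side, while at EARS2, CARS, EEF1G, WARS2, TRMT2A, TRMT1 and EIF5B animals lie on both.

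Of these 20 SNPs the reference allele was higher at 14 and the alternate at 6, and at 12 every heterozygous animal lay on the same side of 0.5. Of the 6 with the alternate allele higher, 5 had at least 15 heterozygous animals among the 18, with TARS as the exception. Such SNPs made up 14 of the 280 (5.00%, background 9.89%), in 6 genes, and no animal was homozygous at 7 of the 14. Of the 14, 10 were called by both tests, against 70 (26.3%) of the other 266. Of all 2409 such SNPs, 1431 were called by both tests, so the high rate was not particular to these genes. Adjusted without such SNPs in the table, the LRT called 102 of the 266 (38.3%, background 33.9%) and both tests 66.

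Among the RNA methyltransferases, NSUN2, which makes 5-methylcytosine in tRNA, had 11 SNPs and 1 called by both tests. That missense SNP on chromosome 16 (66472766) was at 0.635, with animals at 0.566, 0.598, 0.616, 0.651 and 0.704. All 5 were above 0.5 (adjusted P-value 0.000731, quasi-binomial test; exact sign-flip permutation test, P = 0.0625, the least that 5 animals can give). TRMT1, which dimethylates a guanosine of tRNA, was at 0.588 at a missense SNP (chromosome 5, 10553804; 8 of 10 animals above 0.5) and TRMT2A, which methylates uridine, at 0.602 at 72163526 on chromosome 17 in all 18 animals (0.333 to 0.731, 14 above 0.5). The latter lies within 9 bp of 3 more SNPs heterozygous in all 18 animals, at 0.528, 0.531 and 0.549, none of which was called, and 2 SNPs farther off, heterozygous in 8 animals each, were at 0.509 and 0.462. Neither SNP of TRMT5, which methylates the base next to the anticodon, was called.

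By predicted consequence, 182 of the 280 SNPs were synonymous, 67 missense and 11 in the 3′ UTR, and 9 lay in a splice region. Of the missense SNPs, 16 (23.9%) were called by both tests, against 28.9% of all missense SNPs, and of the synonymous SNPs 53 (29.1%), against 20.9%. The missense SNPs with the largest distances, 1 per gene, were those of EIF3A (38203671), NSUN2, AARS2 (17879552), TARS, TRMT2A, LARS2 (53689860, 0.601), TRMT1 and EPRS (21609469), already described. At 42 of the 280 SNPs the animals differed from each other beyond counting error (background 15.4%), in 25 genes. AARS2 and EIF3A held 5 each and EIF3H, LARS2 and TARS2 3 each. After EIF3A and EIF3H, the widest spreads were at EIF3B (40758315, chromosome 24, animals from 0.414 to 0.599, dispersion 5.13), TARS2 (99434511, dispersion 4.81) and AARS (1177916, animals from 0.350 to 0.575, dispersion 4.56), none of which was called for AI.

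Since the animals shared a sire, an allele that the sire carried could be named at 159 of the 280 SNPs, in 54 genes, as the one homozygous in at least 3 animals where none was homozygous for the other. The allele so named was the reference allele at 117 of the SNPs and the alternate at 42. Whether the sire also carried the other allele is not given by this rule, so the parent that passed on each allele of a heterozygous animal was not established. Over the SNPs of a gene, the percentage of reads with that allele averaged over animals ran from 42.0% in TARS to 76.7% in EIF3A, with a median of 51.3%. The value of EIF3A is not one of the whole gene: it rests on the 5 SNPs within 9 bp, and the only other SNP that entered, 38203382, had 46.7% in the 3 animals that were heterozygous at both places. In TARS it was 42.0% ± 2.60 (SD, n = 10), from 37.1% to 45.1%, below 50% in every animal. In NARS it was 56.1% ± 1.32 (SD, n = 11), from 54.7% to 58.8%, above 50% in every animal. EEF1G (52.4% ± 0.864, n = 14) and RARS (57.2% ± 4.39, n = 7; this gene was chosen after its values were seen) were also on one side in every animal, at 1 SNP each. In TARS, NARS and EEF1G the named allele was the reference allele, so the percentage there restates the reference share. In AARS2 the allele carried by the sire had 54.9% ± 3.52 (SD, n = 13) and was higher in 11 animals, and in WARS2 it had 46.4% ± 6.21 (SD, n = 13). In WARS2 it was the alternate allele at 4 SNPs and the reference allele at 3, and was the lower of the pair at all 7.

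**Figure D4:**
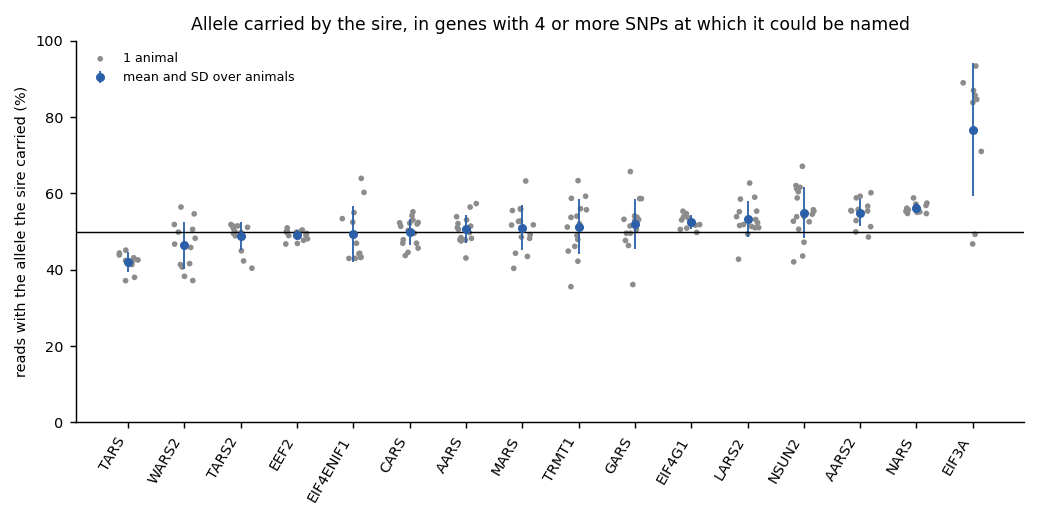
Percentage of reads with the allele named as carried by the sire in each animal (grey) and the mean and SD over animals (blue) in the genes with 4 or more SNPs at which it could be named; the line is 50%. All animals lie below the line in TARS (mean 42.0%) and above it in NARS (56.1%), and the EIF3A animals lie from 46.8%, with only the SNP outside the 9 bp cluster, to 93.4%, with only SNPs inside it.

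The number of alternate alleles at a marker SNP was set against the log2 of the RPM summed over the other SNPs of its gene more than 200 bp away, for 19 markers of the named genes, 3 of them in LARS2 and 2 in EIF3A. The slope had the sign of the allele difference at 17 of the 19. At EPRS 21609469, Pearson's r was -0.65 and Spearman's rho -0.65 over the 18 animals (permutation P = 0.00383 and 0.00518, adjusted over the 19 markers 0.0364 and 0.0984). Without RS918, the only animal homozygous for the reference allele, r was -0.57 (adjusted permutation P = 0.0969). The mean was 7.03 ± 0.105 (SD, n = 11) in animals homozygous for the alternate allele, 7.19 ± 0.138 (SD, n = 6) in heterozygous animals and 7.32 in the only animal homozygous for the reference allele. At LARS2 53689860 r was -0.64 and rho -0.57 (permutation P = 0.00280 and 0.0142, adjusted 0.0364 and 0.110). Without RS953, the animal with the fewest RPM at the other LARS2 SNPs, r was -0.57 (adjusted permutation P = 0.103). The means were 8.27 ± 0.286 (SD, n = 8), 8.07 ± 0.294 (SD, n = 6) and 7.59 ± 0.442 (SD, n = 4) with 0, 1 and 2 alternate alleles.

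These 2 markers passed by r and none passed by rho. The number that passed by r was 0 without RS920, RS930, RS937, RS943, RS947 or RS953, 1 without RS919, RS940 or RS969, and 2 or 3 without any of the other animals. The adjusted P-value for EPRS ranged from 0.0218 to 0.103 and for LARS2 from 0.00760 to 0.103 over these, and AARS2 17879552 (r = 0.60, adjusted permutation P = 0.0655) passed without 3 of the 18. At EIF3A 38203668, where the allele difference was largest among the 19, r was -0.06 (adjusted permutation P = 0.870), with means of 7.95 ± 0.160 (SD, n = 11) and 7.94 ± 0.0582 (SD, n = 7) with 0 and 1 alternate alleles.

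**Figure D5:**
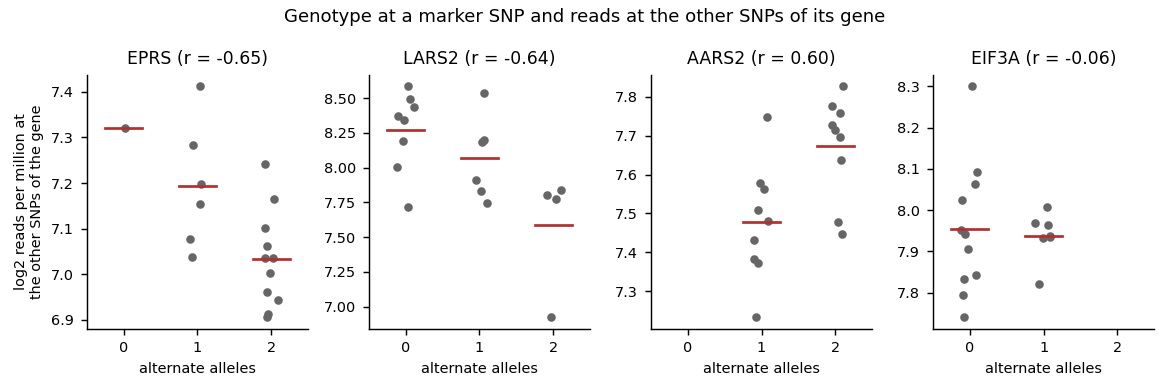
Log2 of the RPM summed over the other SNPs of the gene in each of the 18 animals (points) and the mean per genotype (bars), by the number of alternate alleles at a marker SNP of EPRS, LARS2, AARS2 and EIF3A; the axes differ between panels and do not start at 0. The means fall with alternate alleles in EPRS and LARS2 (r = -0.65 and -0.64), rise in AARS2 (0.60) and are level in EIF3A (-0.06).

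Of a list of 70 other genes of translation and tRNA processing, 45 were in the table with 167 SNPs. The LRT called 38 SNPs (22.8%, background 38.0%), 29 with the reference and 9 with the alternate allele higher, and both tests called 22 (13.2%, background 24.5%). The list includes regulators of initiation, mitochondrial elongation factors and tRNA-modifying enzymes. The elongation factor TUFM had 2 of 3 SNPs called by both tests, at 0.526 and 0.532, and the modifying enzyme GTPBP3 6 of 8, from 0.266 to 0.645. These were chosen after their values were seen.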

How the data were processed

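RNA from 18 fetal perirenal adipose tissue samples was sequenced as paired end reads of 100 bp (5 ug of total RNA per library). The authors aligned the reads to Oar v3.1 with STAR, allowing 10 mismatches and keeping unique alignments, called SNPs and genotypes from the same reads with GATK 3.4-46, and kept SNPs with at least 10 reads of both alleles in at least 5 animals. The deposited values are raw, unnormalized read counts of each allele per animal, with the genotype call. The deposited table also holds the authors' test statistic, P-value, higher allele and proportion of reads to the reference, none of which was used here. Lanes are not given per sample. Because mapping to 1 reference and calling genotypes from the counted reads can both shift a share, the share of the other allele in homozygous animals with at least 20 reads is given.

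The Poisson LRT took 2 times the log likelihood ratio of reads summed over heterozygous animals as chi-square with 1 degree of freedom (null share 0.5), with Benjamini-Hochberg adjustment over all 24244 SNPs with heterozygous reads. The second test was a quasi-binomial F test per SNP with the dispersion between animals moderated over all SNPs by limma 3.58.1 (R 4.3.3). Differences between animals were tested by Pearson's chi-square, and both are adjusted likewise. Standard errors are quasi-binomial. They and the quasi-binomial P-values take in the spread between animals and counting error. P-values of the LRT and of Pearson's chi-square cover only the counting error of reads taken as independent. Reads without molecular identifiers are not independent molecules. All P-values refer to these 18 libraries. Genotype correlations over the 18 animals used 100000 permutations, and fewer with an animal left out. The scripts ran in Python 3.11.15 with numpy 2.4.6, pandas 2.3.3 and scipy 1.17.1 and were tested on simulated data.

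The genes, lists and tests were chosen with earlier results of these data known. Named SNPs had at least 5 heterozygous animals: the 20 genes with the largest distance from 0.5 called by both tests, the 5 with the most SNPs (AARS2, AARS, LARS2, NSUN2, TARS2), 10 with the largest missense or splice SNPs called by both, the 5 largest dispersions, genes with 5 or more SNPs and no call, and the 5 highest and 5 lowest in coverage. Sign-flip P-values of SNPs chosen for their distance are descriptions. No pair of libraries was alike within sampling noise (smallest chi-square per degree of freedom 3.79). Alternatives were the null share, 20 or 30 reads, unadjusted P-values, 50 reads per animal by down-sampling (20 rounds), SNPs heterozygous in 15 or more animals left out, animals with fewer than 10 reads of an allele left out, and each animal left out.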

Additional observations from a re-analysis of the deposited data

Results flagged for a closer look

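At the TARS2 SNP 99434511 on chromosome 1, RS937 had a reference share of 0.681 (188 reads), apart from the other 7 heterozygous animals, which lay between 0.417 and 0.538. Its gap to the next animal was 0.540 of the whole range, above Dixon's 95% critical value of 0.526 for 8 animals. Of 28 SNPs named in the report with 4 to 10 heterozygous animals this was the only one past that limit, and chance alone passes about 1 in 20.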

How the results depend on the processing

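Requiring 30 reads of each allele in 5 heterozygous animals left 160 of the 280 SNPs, of which 72 were called by the LRT and 50 by the quasi-binomial test, in place of 114 and 80. The LRT share was then 45.0% against 48.3% of all SNPs, below the background, where at the deposited 10 reads it was above it (40.7% against 38.0%). Down-sampling to 50 reads per animal left 58 by the LRT, since fewer reads entered. In the list of other translation genes the 38 called SNPs became 25 at 20 reads, 15 at 30 reads and 24 after down-sampling. Without adjustment, 79 SNPs in place of 42 differed between animals. These alternatives for the list and for the difference between animals were chosen after seeing the data, as was leaving out RS929. With the null share at the median of all SNPs (0.519), EEF2 17599394 (0.501) and EIF4B 133267989 (0.506) lay on the other side of the null, uncalled in either case, and EIF3H 60424825 (0.526) was no longer called. Leaving out each animal in turn gave 107 to 117 SNPs by the LRT and 72 to 80 by the quasi-binomial test, 42 to 48 and 29 to 35 genes, a median share of 0.517 to 0.521, 35 to 43 SNPs that differed between animals, 33 to 40 SNPs in the list of other genes, and 0 to 3 markers at which genotype and total reads were related (main value 2). Of the named SNPs, CARS 47815249 was no longer called without RS953 (0.584), nor EIF3H 60424825 without RS917 (0.517) or RS969 (0.514), while EIF4ENIF1 69640013 (0.551), EIF3E 68900870 (0.512) and TRMT5 70047555 (0.598) were called without RS926, RS953 and RS937. No paired analysis was possible because all 18 samples belong to 1 group, so no samples could be paired across groups. The alleles themselves were compared within each animal. Depth limits the low genes most: at TRMT5, EIF2AK2 and EIF2AK3 the standard error of a share was 0.028 to 0.0448.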
